A study of Homo sapiens with 4 samples.

Results

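The aryl hydrocarbon receptor (AhR) pathway and the CYP1 enzymes were described in the human glioblastoma cell line LN229 by 7 genes, *CYP1A1*, *CYP1A2*, *CYP1B1*, *AHR*, *ARNT*, *AHRR* and *TIPARP*. They were found by gene symbol among the 20481 symbols on the array, and all 7 were present, with 9 probes. *AHRR* had 3 probes and the other genes 1 each. The genes were chosen by their measured signals in this same contrast of *SOX2* knockdown with mock knockdown, so their values are given as a description and carry no test.

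LN229 cells had been transfected with siRNA against *SOX2*, a transcription factor of stem cells (*SOX2* knockdown, 2 arrays), or with a non-targeting control siRNA (mock knockdown, 2 arrays). Such small interfering RNAs lead to the breakdown of transcripts they match. All cells were grown in DMEM medium and all carried an siRNA, so an untransfected state was not compared, and the knockdown was transient. Total RNA (250 ng a sample) was labelled with biotin and hybridised to a 1-colour Applied Biosystems Human Genome Survey array, and the study's methods call the pair of arrays of a group biological replicates with their own transfections. A change in the RNA of every cell and a change in the share of cells that make it cannot be told apart in such bulk RNA.

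AhR is a ligand-activated transcription factor of the bHLH-PAS family. Without a ligand it is held in the cytoplasm by HSP90 and its co-chaperones. With a ligand, such as a dioxin, a polycyclic aromatic hydrocarbon or a tryptophan metabolite like kynurenine, it enters the nucleus, pairs with ARNT and binds xenobiotic response elements near its target genes. *CYP1A1*, *CYP1A2* and *CYP1B1* encode cytochrome P450 monooxygenases and are the classical targets. *AHRR* and *TIPARP* are also targets and act back on the receptor, the former as a repressor that competes for ARNT and the latter as an enzyme that ADP-ribosylates AhR. In glioma, kynurenine made from tryptophan by TDO2 is known as an AhR ligand.

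The sequence around the transcription start is shown for *CYP1A1*, *AHR* and *TIPARP*, 3 of the 4 genes whose probes were higher on both *SOX2* knockdown arrays than on both mock arrays. *CYP1B1* is the other, and it had no window in the promoter set used, which covered 6 of the members. Each window runs from 250 bases before to 50 bases after a RefSeq start in GRCh38.p14, is printed 5′ to 3′ on the strand of the gene, and has in capitals each match to the core of the xenobiotic response element, GCGTG, or to its reverse complement CACGC. The windows are chr15:74725479-74725778 on the minus strand for *CYP1A1*, chr7:17298402-17298701 on the plus strand for *AHR*, and the first of 3 windows of *TIPARP*, chr3:156674340-156674639 on the plus strand.
CYP1A1: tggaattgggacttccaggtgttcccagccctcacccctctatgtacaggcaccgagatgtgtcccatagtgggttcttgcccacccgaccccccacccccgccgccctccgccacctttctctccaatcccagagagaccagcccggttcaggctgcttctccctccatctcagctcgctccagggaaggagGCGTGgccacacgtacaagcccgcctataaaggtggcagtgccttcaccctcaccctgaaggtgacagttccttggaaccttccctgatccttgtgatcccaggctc
AHR: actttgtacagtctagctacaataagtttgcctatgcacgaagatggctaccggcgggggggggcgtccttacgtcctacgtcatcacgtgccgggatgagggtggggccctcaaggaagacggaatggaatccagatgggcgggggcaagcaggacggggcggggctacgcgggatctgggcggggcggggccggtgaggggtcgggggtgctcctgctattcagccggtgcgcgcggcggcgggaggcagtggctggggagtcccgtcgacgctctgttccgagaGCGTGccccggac
TIPARP: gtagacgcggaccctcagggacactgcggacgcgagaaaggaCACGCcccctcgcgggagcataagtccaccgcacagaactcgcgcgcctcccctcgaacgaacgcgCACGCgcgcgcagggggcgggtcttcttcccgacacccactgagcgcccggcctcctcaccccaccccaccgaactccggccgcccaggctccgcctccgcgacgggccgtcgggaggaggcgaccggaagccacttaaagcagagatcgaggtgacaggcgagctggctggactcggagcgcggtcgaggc

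The *CYP1A1* window holds 1 match, starting 57 bases before the start site (-57), in the orientation of the gene. The *AHR* window holds 1, at position 38 after the start, and this *TIPARP* window holds 2, at -208 and -142, both on the opposite strand. The remaining 2 windows of *TIPARP* and those of *CYP1A2* and *ARNT* hold 0. For *AHRR*, 1 window holds 1 match, at -30, and another holds 2, at -247 and -42. Of 35116 RefSeq windows of this length, 12832 (36.5%) hold at least 1 match and 12.7% hold 2 or more, so 5 letters alone are a common find. GCGTG is also a form of the core to which hypoxia-inducible factors bind. The matches are a description of letters and were not tied to any binding in these cells.

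Each signal is a multiple of its array's 75th percentile over probes. A probe was kept where, in 1 group or more, both arrays had S/N, the signal-to-noise ratio, over 3. That held for 21256 of 32886 probes without a quality flag. The share of probes with S/N over 3 was 63.8% to 69.4% on the 4 arrays. The median change of all kept probes was close to 0 (-0.0012 on the log2 scale), with 95% of them between -0.77 and 0.85. The median difference between the replicate arrays of a probe was 0.22 for mock and 0.17 for *SOX2* knockdown on the log2 scale. *SOX2* itself had signals of 0.467 and 0.701 with control siRNA and 0.209 and 0.149 with *SOX2* siRNA, with S/N of 3.17 and 3.06 on the latter, and its change was -1.69 ± 0.28 (SE, log2 scale, limma, Benjamini-Hochberg adjusted p = 0.117). The treatment field of the labels mentions SW620, which comes from a colon cancer, whereas the sample titles and the study name LN229. Of 9 markers listed for a glioma line, 9 exceeded S/N 3 on every array, and their summed signal was 124 and 145 for mock and 120 and 107 for *SOX2* knockdown. Of 10 markers of colon epithelium, 2 exceeded it on every array and 3 on none, and their summed signal was 0.789 to 0.878. The 2 were *KRT8*, with signals of 0.536 to 0.568 that made up most of the sum, and *VIL1*, with 0.0653 to 0.0924. *CDH1* and *KRT20* lay at background on every array. *CDX2* and *LGALS4* exceeded S/N 3 on both mock arrays and on neither knockdown array. In the glioma sum the largest signals were those of *VIM*, 51.1 to 59.1, and *S100B*, 25.3 to 41.4. *FABP7*, a fatty acid binding protein of the glioma list, was the only one of the 13 kept markers past 2-fold, at -1.02 ± 0.14 (log2, adjusted p = 0.101).

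Of the 9 member probes, 8 were kept, standing for 6 genes. *CYP1A1* had the largest ratio, and *CYP1B1*, *AHR* and *TIPARP* were also higher on both *SOX2* knockdown arrays than on both mock arrays. *ARNT* was slightly lower, and the groups overlapped for all 3 *AHRR* probes. Over 2-fold were 1 kept member probe upward and 0 downward. Among all kept probes, 334 (1.57%) were over 2-fold higher and 220 (1.04%) over 2-fold lower. The arrays of *SOX2* knockdown lay both above those of mock for 4 of the 8 member probes and for 21.2% of all kept probes, and both below for 1 member probe and for 25.8% of all. The median change of the 8 was 0.27 on the log2 scale, and 7 of them were above 0, against 49.8% of all kept probes. Because these values chose the members, nothing is read from the difference to the background.

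**Figure D1:**
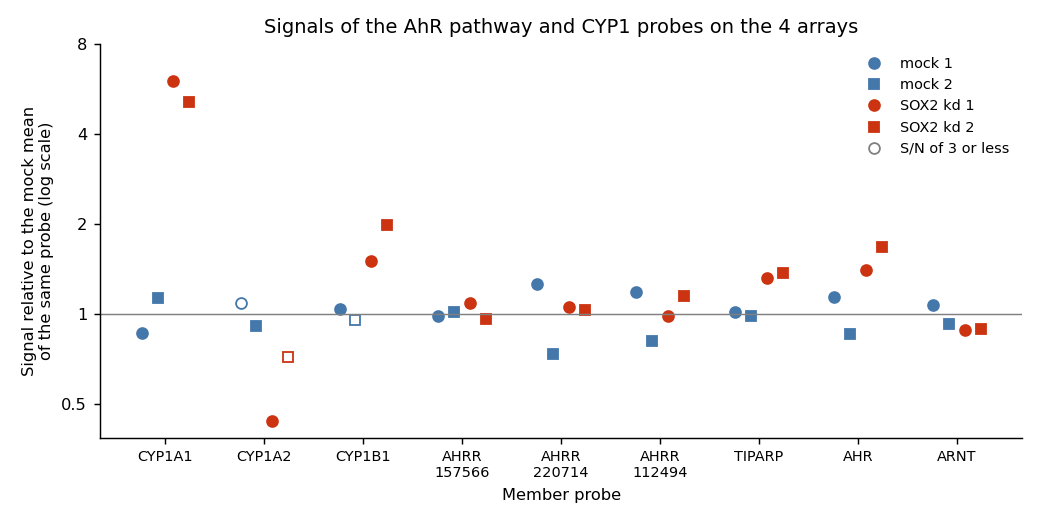
Signal of each member probe on the 4 arrays, divided by the mean of the mock arrays for the same probe (log scale). Blue, mock knockdown; red, SOX2 knockdown; circles and squares, replicates 1 and 2; open symbols, S/N of 3 or less. CYP1A1 lies far above its mock values on both knockdown arrays, while the symbols of the 3 AHRR probes, marked by their probe number, are mixed.

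*AHR*, the receptor, had signals of 3.68 and 2.78 with control siRNA and 4.55 and 5.41 with *SOX2* siRNA. The lowest knockdown array lay 1.23-fold above the highest mock array, and the means, 3.23 ± 0.640 (SD, n = 2) and 4.98 ± 0.610 (SD, n = 2), differed 1.54-fold. On the log2 scale the change was 0.63 ± 0.20 (SE). Signal divided by S/N, taken here as a rough error of a single spot, was 0.0418 to 0.0721. That was far smaller than the spread between the arrays of a group.

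*ARNT*, the partner through which the receptor binds DNA, had signals of 0.266 and 0.231 for mock and 0.220 and 0.221 for *SOX2* knockdown. The groups did not overlap, but the gap was small, with a ratio of 0.888 and a change of -0.17 ± 0.14 (SE, log2). The higher and the lower mock array differed by 0.20 on the log2 scale, more than the groups did.

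*CYP1A1*, the monooxygenase most used as a readout of AhR activity, had signals of 0.254 and 0.331 with control siRNA and 1.76 and 1.495 with *SOX2* siRNA. Its S/N was 18.8 and 32.8 for mock and 43.8 and 57.6 for knockdown, so the transcript was measured above background in every library. The means were 0.293 ± 0.0546 (SD, n = 2) for mock and 1.63 ± 0.190 (SD, n = 2) for *SOX2* knockdown, a 5.56-fold difference. Array against array, the ratio ranged from 4.51 to 6.94. On the log2 scale the change was 2.48 ± 0.19 (SE), against replicate differences of 0.38 and 0.24. By size of rise it took place 20 among the 21256 kept probes. With normexp background correction of the raw reading the change was 1.99, still over 2-fold.

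*CYP1B1*, the CYP1 enzyme that acts mostly outside the liver, lay near background. Its signals were 0.0380 and 0.0349 for mock and 0.0549 and 0.0721 for *SOX2* knockdown, and S/N was 6.41, 2.37, 4.18 and 11.5 in that order, over 3 on 3 arrays. The probe was kept only through the knockdown arrays, where it is high. The ratio was 1.74 and the change 0.79 ± 0.18 (SE, log2). That value rests on a dim probe, since a floor of 0.05 brought it to 0.33 and normexp correction turned it to -0.09.

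*CYP1A2*, the CYP1 enzyme that is mainly hepatic, was not kept. Its signals were 0.0330 and 0.0276 for mock and 0.0134 and 0.0218 for *SOX2* knockdown, with S/N of 1.88, 3.11, 4.4 and 1.5, over 3 on 1 array of each group. The ratio of the means was 0.580, and since neither group was above background on both of its arrays, no difference is read from it. The gene is a neighbour of *CYP1A1* on the same chromosome.

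*AHRR*, the repressor, was read by 3 probes. Probe 157566 had signals of 1.18 and 1.22 for mock and 1.30 and 1.16 for *SOX2* knockdown, a ratio of 1.03. Probe 220714 had 0.464 and 0.269 for mock and 0.387 and 0.379 for knockdown, a ratio of 1.05. The mock arrays thus enclosed the knockdown arrays. Probe 112494 had 0.102 and 0.0698 for mock and 0.0846 and 0.0990 for knockdown, a ratio of 1.07, and here too both knockdown values fell between the mock values. All 3 exceeded S/N 3 on every array. The changes were 0.04 ± 0.14, 0.12 ± 0.29 and 0.12 ± 0.24 (SE, log2), each within 1 SE of 0.

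*TIPARP*, the ADP-ribosyltransferase, had the tightest replicates of the genes that were higher. Its signals were 5.72 and 5.53 with control siRNA and 7.41 and 7.71 with *SOX2* siRNA, with S/N from 61.0 to 102.8. The means differed 1.34-fold and every array pair fell between 1.30 and 1.39. The change was 0.43 ± 0.13 (SE, log2), against replicate differences of 0.05 and 0.06.

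**Figure D2:**
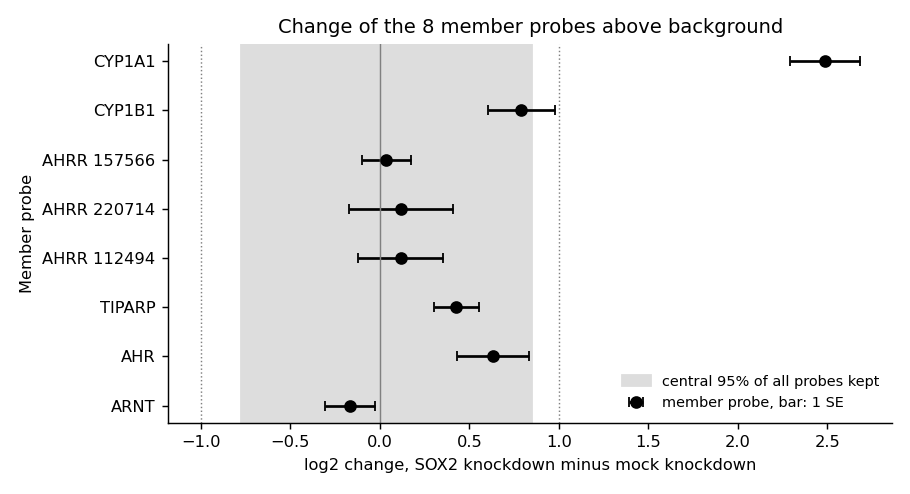
log2 change of the 8 kept member probes, SOX2 knockdown minus mock knockdown, with bars of 1 SE from limma over 2 arrays a group. The grey band holds the central 95% of all 21256 kept probes and the dotted lines mark 2-fold; CYP1A1, at 2.48, is the only member outside the band.

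Across the genes written down for the rest of the pathway and its families, 150 of 155 were on the array (6 of them under an older symbol). Of these, 106 were kept, each read from its brightest probe, and some of the 106 share a probe. By limma with Benjamini-Hochberg adjustment over all kept probes, 0 of the 106 passed an adjusted p of 0.05, as did 0 of all 21256 (0%; smallest adjusted p 0.0582). At an unadjusted p under 0.05 there were 17 of the 106 (16.0%), 10 higher and 7 lower, against 3626 of all kept probes (17.1%). Over 2-fold were 2 of the 106, both higher, *EREG* and *CYP4F2*. Among all kept probes, 1.57% were over 2-fold higher and 1.04% over 2-fold lower.

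Of the receptor's partners and coregulators, all 14 were kept, 0 were over 2-fold, and the median change was -0.04 on the log2 scale. The highest was *NCOA3*, a p160 coactivator, at 0.52 ± 0.14 (adjusted p = 0.1999), and the lowest *ARNT2*, the neural relative of *ARNT*, at -0.32 ± 0.15 (adjusted p = 0.392).

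Of the other bHLH-PAS factors, 10 of 13 were kept, 0 were over 2-fold, and the median was -0.04. *SIM2*, a neural developmental factor, was at 0.81 ± 0.16 (adjusted p = 0.137) and *NPAS3* at -0.46 ± 0.13 (adjusted p = 0.207). The other probe of *SIM2* had S/N over 3 on 1 array only and a ratio of 1.08. With normexp correction *SIM2* was at 0.38 and *NPAS3* at 0.26. The lowest adjusted p of the list was that of *ARNTL*, at 0.73 ± 0.13 (adjusted p = 0.125), and 0.72 with normexp correction. In this list both knockdown arrays lay above both mock arrays for 2 kept genes and below for 4, against 21.2% and 25.8% of all kept probes. *HIF1A*, another partner of ARNT, had signals of 3.23 and 3.43 for mock and 3.52 and 3.11 for *SOX2* knockdown, and its groups overlapped.

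Among 21 other genes described as AhR targets, 13 were kept, 1 was over 2-fold higher and 0 lower, with a median of 0.11. *EREG*, which encodes the growth factor epiregulin, had signals of 0.0429 and 0.0174 for mock and 0.0668 and 0.0721 for *SOX2* knockdown, with S/N of 7.95, 1.38, 9.76 and 14.5. The groups did not overlap, but the mock arrays differed by more than the groups' nearest arrays. Its ratio was 2.30 and its change 1.34 ± 0.45 (SE, log2, adjusted p = 0.257), and it was kept only through the knockdown arrays, where it is high. The change was 1.99 without mock replicate 1 and 0.69, under 2-fold, without mock replicate 2. It was 0.47 at a floor of 0.05 and -0.03 with normexp correction, so its direction depended on the background correction. *NQO1*, a quinone reductase that AhR and NRF2 both control, had 11.5 and 11.9 for mock and 13.9 and 12.7 for knockdown, a ratio of 1.13 (adjusted p = 0.590). *ALDH3A1*, a classical target, had a ratio of 1.16 with overlapping groups. The lowest adjusted p of the list was that of *SLC7A5*, at 0.71 ± 0.12 (adjusted p = 0.121), and 0.40 with normexp correction. *POLK* was the lowest at -0.51 ± 0.14 (adjusted p = 0.203). Both knockdown arrays lay above both mock arrays for 6 of the 13, *EREG* among them, and below for 2. Among all kept probes the shares were 21.2% and 25.8%, and the difference was not tested. *UGT1A1* and *UGT1A6* share a probe with 7 further *UGT1A* genes, and it lay at background on all arrays.

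The enzymes that make or use kynurenine were mostly dim, with 6 of 15 kept, 0 over 2-fold and a median of -0.14. *TDO2* and *IDO1*, which open the tryptophan ring, had S/N under 3 on all 4 arrays. *KYNU*, kynureninase, was the highest at 0.76 ± 0.20 (adjusted p = 0.189), with 0.36 at its other probe and -0.42 under normexp correction. Its brightest probe was kept only through the knockdown arrays, where it is high. *QPRT*, which leads the pathway to NAD, was the lowest at -0.34 ± 0.14 (adjusted p = 0.331).

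Among the P450 electron donors and the conjugating enzymes that act on P450 products, 21 of 24 were kept, 0 were over 2-fold at the brightest probe, and the median was -0.13. *MGST1*, a microsomal glutathione transferase, had 0.300 and 0.339 for mock and 0.659 and 0.584 for *SOX2* knockdown, 1.95-fold, and its other probe gave 2.13-fold. Its change was 0.96 ± 0.15 (adjusted p = 0.107). With normexp correction the change was 0.50 at this probe and 0.57 at the other, on the log2 scale. *GSTT1* was the lowest at -0.59 ± 0.14 (adjusted p = 0.166). The other PARP family genes, relatives of *TIPARP*, had 13 of 15 kept, 0 over 2-fold and a median of -0.13, from *PARP9* at -0.43 ± 0.14 (adjusted p = 0.245) to *PARP6* at 0.33 ± 0.14 (adjusted p = 0.339).

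Of 49 other cytochrome P450 genes on the array, 25 were kept, 1 was over 2-fold higher and 0 lower, with a median of 0.05. *CYP4A11* and *CYP4A22* were read from 1 probe that both share, so the 25 are not independent. The median is the value of that probe. *CYP4F2*, a fatty acid omega-hydroxylase, had signals of 0.0132 and 0.0247 for mock and 0.141 and 0.129 for *SOX2* knockdown, with S/N of 3.41, 2.65, 15.2 and 32.1. The ratio was 7.13 and the change 2.90 ± 0.33 (SE, log2, adjusted p = 0.0884). The probe was kept only through the knockdown arrays, and its mock signals lay near background, so the size of the ratio is not settled. The change was 1.43 at a floor of 0.05 and 0.33 with normexp correction. *CYP4F3*, its close relative, had 2 probes that disagreed. The brighter, by mean signal, had S/N below 0 on every array. The other, singled out after its values were seen, had 0.0132 and 0.0145 for mock, not above background, and 0.105 and 0.116 for knockdown. Its change was 1.14 on the log2 scale at a floor of 0.05 and 1.02 under normexp correction, and no fold is given for it, since its size depended on the background treatment. *CYP4F2* and *CYP4F3* are closely related paralogs, and whether their probes bind both transcripts was not tested.

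The neighbours of *CYP1A1* were taken as the nearest 3 genes on each side that the RefSeq table labels protein coding, leaving out *CYP1A2*, which is described above, and counting *CLK3-AS1*, which has an antisense name. Of these 6, all but *CLK3-AS1* (5) were on the array and kept, 0 were over 2-fold, and the median was 0.15. *CSK*, a tyrosine kinase, was the highest at 0.45 ± 0.29 (adjusted p = 0.523) and *EDC3*, an mRNA decapping factor, the lowest at 0.05 ± 0.27 (adjusted p = 0.965). The other probe of *EDC3*, also kept, was at 0.35 ± 0.14 (adjusted p = 0.305), so its place as the lowest depends on the probe. The *CSK* probe was kept only through the knockdown arrays, where its mean is higher. *LMAN1L* and *CPLX3* were read from 1 probe that both share, so the 5 are not independent, and the median is the value of that probe.

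**Figure D3:**
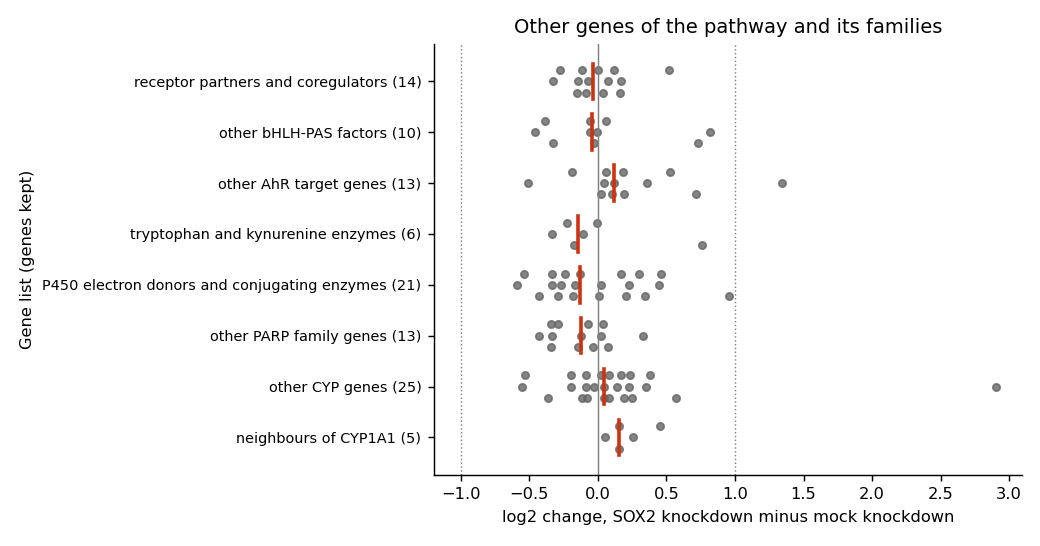
log2 change (SOX2 knockdown minus mock knockdown) of the kept genes of each list, 1 point a gene at its brightest probe, with the red bar at the list median and dotted lines at 2-fold. The medians lie between -0.14 and 0.15, and the points past 2-fold are EREG at 1.34 and CYP4F2 at 2.90.

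The genes whose pattern over the 4 arrays lay nearest to that of *CYP1A1* were found by the root mean square distance of log2 signals, each centred on its own mean, among 15882 other probes with a symbol and S/N over 3 on all arrays. They were *NRG1*, a growth factor that activates ERBB receptors, at a distance of 0.119, *SH3RF2* at 0.133, *DHRS2*, a short-chain dehydrogenase, at 0.142, *HMOX1*, the stress-induced heme oxygenase, at 0.147, and *SLC14A1*, a urea transporter, at 0.174. With 4 arrays in 2 groups, a near pattern says little beyond a rise of a like size.

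*HMOX1* had signals of 1.19 and 1.36 with control siRNA and 6.33 and 5.67 with *SOX2* siRNA, a 4.69-fold difference between means. *SLC14A1* had 0.259 and 0.350 for mock and 1.39 and 1.56 for knockdown, 4.84-fold. *DHRS2* had 0.134 and 0.144 for mock and 0.753 and 0.607 for knockdown, 4.90-fold. These 3 have a single probe each. *SH3RF2* had 0.0759 and 0.0814 for mock and 0.416 and 0.408 for knockdown, 5.23-fold, and its other probe was not above background on the mock arrays. *NRG1* had 4 probes that disagreed: the nearest one was 4.97-fold higher, another 4.13-fold, and the remaining ones 1.14-fold and 1.17-fold. With normexp correction the changes of *DHRS2*, *NRG1* (the nearest probe) and *SH3RF2* were 1.40, 1.46 and 1.58 on the log2 scale, against 2.29, 2.31 and 2.39 without it, while those of *HMOX1* and *SLC14A1* were 2.24 and 2.13, against 2.23 and 2.29.

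**Figure D4:**
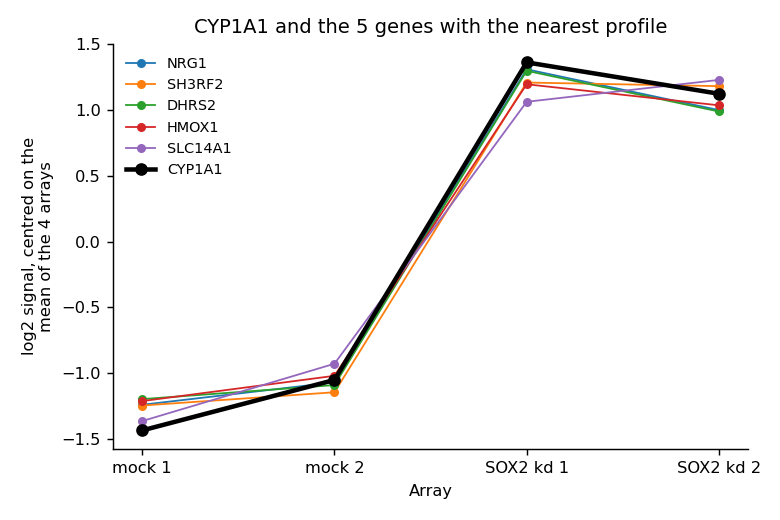
log2 signal of CYP1A1 (black) and of the 5 genes with the nearest profile on the 4 arrays, each centred on its mean. Lines only join the values of a gene; all 6 profiles are below -0.9 on the mock arrays and above 0.9 on the SOX2 knockdown arrays.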

How the data were processed

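RNA of 2 *SOX2* knockdown and 2 mock knockdown samples was read on 1-colour chemiluminescent oligonucleotide arrays. The deposited scanner files hold signal intensity, normalized within each array by the authors' software (version not given in the sources used here), a signal-to-noise score (S/N, per the file headers) and flags. The deposited series table holds a linear ratio to the median of each probe and served as an alternative. Per the study's methods, the authors averaged probes by gene ID, whereas single probes were kept here.

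Control features and 210 flagged probes were left out. Signals were divided by the 75th percentile of their array, floored at 0.01 and taken to log2. Probes with S/N over 3 on both arrays of 1 group were fitted with limma 3.58.1 in R 4.3.3 (lmFit, eBayes, no block, two-sided, Benjamini-Hochberg), tested on simulated data. Each SE comes from that fit. The 2-fold cutoff used replicate means. Arrays give no counts, so the number of arrays limits the precision.

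Members and gene lists were chosen with earlier results of these data known. Named were all members, *SOX2*, in each list the genes over 2-fold or else the highest and lowest, and the 5 profiles nearest to *CYP1A1*. Others (*HIF1A*, *NQO1*, *ALDH3A1*, *TDO2*, *IDO1*, the *UGT1A* genes, *MGST1* and *NRG1* second probes, *CYP4F3*, *CYP4A11*, *CYP4A22*, *FABP7*, *CDH1*, *KRT20*, *KRT8*, *VIL1*) were chosen after their values were seen. So were *SLC7A5*, *POLK*, *ARNTL*, *CDX2*, *LGALS4*, *VIM* and *S100B*. Symbols and promoter windows come from RefSeq (GRCh38.p14). Alternatives varied scaling, background, floor, filter, cutoff, block and replicates. The crossed pairing was added after seeing the data.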

Additional observations from a re-analysis of the deposited data

How the results depend on the processing

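*CYP1A1* was over 2-fold higher in every alternative run, with a log2 change of 1.99 under normexp and 2.29 to 2.68 with each array left out. *AHR* (0.43 to 0.84) and *TIPARP* (0.36 to 0.46) stayed higher and *ARNT* lower (-0.27 to -0.02) in all 16. The S/N filters, the floors, the variance trend and the replicate block could not move these changes or that of *CYP1A1*. *EREG* reversed to -0.030 under normexp. Member probes over 2-fold were 3 at a 1.5-fold cutoff (with *CYP1B1* and *AHR*) and 1 to 2 with an array left out, the added probe being *CYP1A2*, lower without *SOX2* knockdown replicate 2. List genes over 2-fold were 0 with S/N over 3 required on every array, 1 at a floor of 0.05, 1 under normexp (*ABCG2*), 9 at 1.5-fold and 1 at 3-fold. All probes over 2-fold (554) became 302 under that filter, 363 at a floor of 0.05, 1373 without the S/N filter, 235 under normexp, 2234 at 1.5-fold, 119 at 3-fold and 782 to 1192 with an array left out. The share of higher calls was 60.3%, but 50.6% at 1.5-fold, 82.4% at 3-fold, 51.2% without the S/N filter, and 53.7% to 71.9% with an array left out (mock replicate 1 and *SOX2* knockdown replicate 1). limma called 0 probes, but 5 under the filter on every array, 287 with a variance trend, 776 without further scaling, 826 scaled to the median and 758 in the series table; in the last 3 fits every probe received the same SE. *CYP4F2* was called with the variance trend and in those 3 fits, which also called *EREG* and *MGST1*, all higher.

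The replicate numbers did not pair the arrays, since the correlation of deviations was negative (-0.48). Mock replicate 1 tended to deviate as *SOX2* knockdown replicate 2 did, and mock replicate 2 as *SOX2* knockdown replicate 1. This crossed pattern is part of the replicate spread and the SEs, and its cause was not tested. A block does not enter the group means. The 554 probes over 2-fold and the *CYP1A1* change of 2.48 were therefore the same by construction. With the replicate block, limma called 0 probes. A crossed pairing, added after seeing the data, also left the 554 by construction, and limma again called 0. The bound for dim members gave no value, since no member was dim on both arrays of 1 group alone. Low S/N limits *CYP1A2* and *CYP1B1*.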
